A study of Homo sapiens with 18 samples.

Results

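The sites described here were distal regions where the glucocorticoid receptor (GR) was present with budesonide, where the NF-κB subunit RELA stayed low, and where GR was lower once IL-1β was added. They were selected on deposited binding intensities. A site had to lie over 1 kb and at most 200 kb from the start of the nearest gene, with a GR intensity of at least 4 with budesonide, a RELA intensity under 4 with IL-1β and with IL-1β-plus-budesonide, and a GR intensity lower by at least 1 with cotreatment than with budesonide alone. Of 11571 sites in the table, 8832 were distal, 5427 of these reached the GR minimum, 2556 of those were without RELA, and 917 met the last condition and are called reduced. The other 1639 distal GR sites without RELA, with a fall under 1, are called kept. A further 1100 distal GR sites, called joined, had RELA under 4 with IL-1β alone and at least 4 with cotreatment.

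The study mapped GR and RELA by ChIP-seq in wild type A549 cells, a lung carcinoma epithelial line, so the values come from 1 cell line. Cells were not stimulated (NS) or received IL-1β (IL1B) at 1 ng/ml, budesonide (Bud) at 300 nM, or both (I+B), for 1 h after overnight serum deprivation. Each condition had 2 libraries, which gave 8 for GR, 8 for RELA and 2 for input. The deposited table gives 1 binding intensity for each 400 bp site, factor and treatment, in which the libraries of a condition were already combined. The spread between libraries and their depth are therefore unknown, no value carries a replicate error, and no difference in intensity was tested. The intensities, which range from a floor of 0 upwards, are read here as log2 values, on which a difference of 1 is a doubling.

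GR is a nuclear receptor that enters the nucleus once it binds a glucocorticoid such as budesonide, a drug inhaled in asthma. It binds DNA as a dimer at glucocorticoid response elements (GREs), palindromes of a hexamer and its reverse complement, and also occurs at regions where other factors lead the binding to DNA. IL-1β is an inflammatory cytokine that frees NF-κB from its inhibitor, so that dimers with RELA reach κB elements. Most GR-binding regions (GBRs) lie far from gene starts, and their recruitment of GR depends in part on chromatin that factors such as AP-1 and FOXA proteins open. Lung epithelium is a main target of inhaled glucocorticoids, and A549 cells respond to both agents.

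The sequences at the centre of 8 reduced sites are shown because they hold the closest GRE matches, the strongest GR binding or some of the deepest falls of the group. A GRE was scored as AGAACA, any 3 bases and TGTTCT, so that 12 positions could match, and a match needed 10 of them. Each line gives 80 bases of the plus strand of GRCh38, with the closest 15 bases to a GRE in capitals. The first 4 match at 12 positions, those near WDR43 and PDE8A at 10, that at TFCP2L1 at 9 and that at MAPKAPK2 at 8.
EPB41L1, chr20:36098051-36098130: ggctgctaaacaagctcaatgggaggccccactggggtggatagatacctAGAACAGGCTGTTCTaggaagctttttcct
PDIA6, chr2:10846346-10846425: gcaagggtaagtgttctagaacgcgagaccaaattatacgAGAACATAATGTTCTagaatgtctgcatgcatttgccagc
CHD9, chr16:52863129-52863208: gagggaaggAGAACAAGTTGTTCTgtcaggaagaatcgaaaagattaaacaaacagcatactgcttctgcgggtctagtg
SYTL4, chrX:100746001-100746080: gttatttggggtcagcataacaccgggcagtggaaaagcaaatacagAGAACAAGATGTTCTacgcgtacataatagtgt
WDR43, chr2:28952109-28952188: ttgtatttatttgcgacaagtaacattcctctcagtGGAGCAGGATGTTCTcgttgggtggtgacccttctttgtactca
PDE8A, chr15:85027060-85027139: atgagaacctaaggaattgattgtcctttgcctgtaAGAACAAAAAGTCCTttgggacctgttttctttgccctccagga
TFCP2L1, chr2:121260802-121260881: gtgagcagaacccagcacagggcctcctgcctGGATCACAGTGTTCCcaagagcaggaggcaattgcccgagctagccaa
MAPKAPK2, chr1:206704856-206704935: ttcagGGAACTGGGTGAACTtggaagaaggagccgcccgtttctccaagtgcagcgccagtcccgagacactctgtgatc

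The 5 reduced sites with a complete palindrome, of which 4 are shown, had GR intensities with budesonide from 4.92 to 6.05. The site in an intron of EPB41L1, a membrane cytoskeleton gene, had a GR intensity of 5.15 with budesonide and 2.94 with cotreatment. The PDIA6 site, 8.21 kb upstream of a gene for a chaperone of the endoplasmic reticulum, went from 6.05 to 4.71. The CHD9 site went from 5.15 to 3.54, the SYTL4 site from 5.34 to 4.28 and the site not shown, in an intron of MTFR1, from 4.92 to 3.47. RELA was listed at 0 with IL-1β and with cotreatment at both EPB41L1 and SYTL4. In the same order it was 3.25 and 3.79 at PDIA6, 3.12 and 3.28 at MTFR1, and 1.58 and 1.76 at CHD9. All 5 GR intensities with cotreatment were below those with budesonide, as the choice of sites required.

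GR with budesonide ranged from 4.00 to 7.96 over the 917 reduced sites, with a median of 5.19, and from 4.00 to 8.28 over the kept sites, with a median of 5.12. With cotreatment the median of the reduced sites was 3.72, from 0 to 6.82, and that of the kept sites 4.82. The reduced sites thus began at about the intensity of the kept sites and were set apart by the second value, which the selection fixed. GR with cotreatment was under 4, the minimum used here for a GR site, at 564 reduced sites and at or above it at 353. The floor of 0 was reached at 2.

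The fall in GR from budesonide to cotreatment had a median of 1.42 on the log2 scale in the reduced sites, with quartiles of 1.18 and 1.80. It lay between 1 and 1.5 at 509 sites (55.5%), between 1.5 and 2 at 269 (29.3%), between 2 and 3 at 121 (13.2%) and above 3 at 18 (1.96%). A fall of at least 1 was found at 19.4% of all 7120 sites with GR of at least 4, at 19.6% of the distal ones and at 35.9% of the distal ones without RELA, which is the share that makes up the group. A rise of at least 1 was found at 14 of the 2556, or 0.548%. Rises were more common over all 7120 sites, where the lower quartile of the fall was -0.18 and its lowest value -3.76. Over the 2556 these were 0.30 and -1.50. The 2556 were selected for low RELA with cotreatment, so their few rises are in part tied to that selection. The median fall was 0.34 over the 7120 sites, against 0.76 over the 2556, 0.44 over the kept sites and 0.11 over the joined sites. The table does not show how libraries were scaled against each other, and a general shift of 0.34 cannot be told apart from such scaling. When the fall was counted from 0.34 instead of 0, 531 sites remained reduced.

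**Figure D1:**
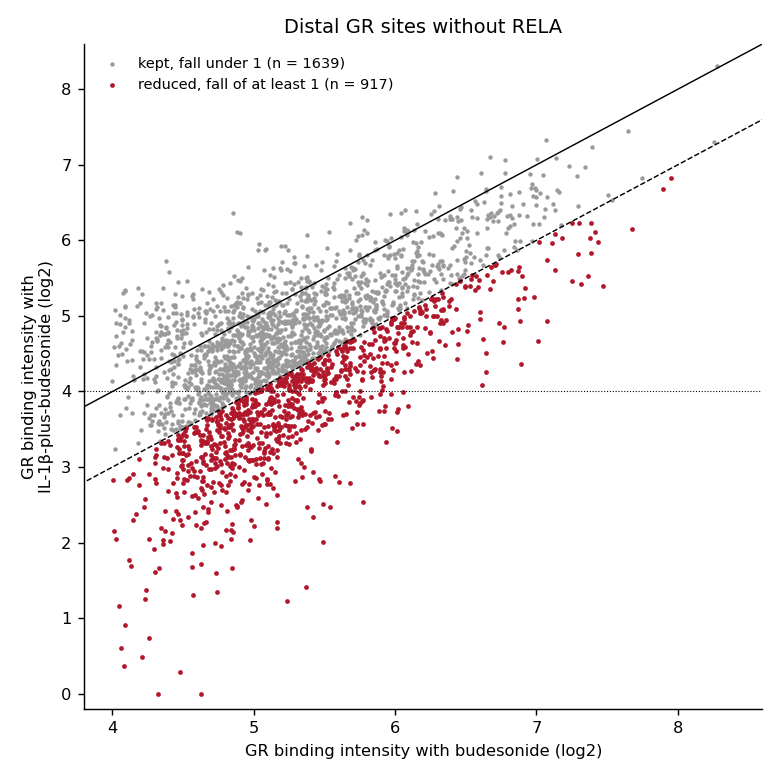
GR binding intensity (log2) with budesonide on the x axis and with IL-1β-plus-budesonide on the y axis, 1 point for each of the 2556 distal GR sites without RELA, with the solid line at equal intensity, the dashed line at a fall of 1 and the dotted line at 4. The 917 reduced sites lie on or under the dashed line by their selection, and 564 of them also lie under the dotted line.

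The limit at a fall of 1 cut through a continuous distribution. Just inside it were sites nearest to PDGFC, MMD and TTI1, whose GR intensities went from 5.65 to 4.65, from 5.67 to 4.67 and from 5.59 to 4.59. Just outside it were sites nearest to MAP1B, PTPRM and AK4, at 5.70 and 4.71, 5.48 and 4.48, and 5.40 and 4.40. Both trios fell by 1.00 after rounding.

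Reduced sites made up 33.7% of the 1032 sites with GR of 4 to 5 with budesonide, 37.1% of the 1138 at 5 to 6, 36.7% of the 338 at 6 to 7 and 47.9% of the 48 at 7 and over. The share was therefore 33.7% to 37.1% over nearly the whole range of starting intensity. The scatter of the fall was widest at the lower end, with a standard deviation over sites of 0.88 for 4 to 5, against 0.67, 0.58 and 0.61 in the higher classes. Across chromosomes the share ran from 11.8% on chromosome 21, where 17 sites qualified, to 44.8% on chromosome 15, where 87 did.

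RELA varied within the low range that the selection left. In the reduced sites its median was 2.37 with IL-1β and 2.79 with cotreatment, and in the kept sites 2.43 and 3.21. RELA was higher with cotreatment than with IL-1β alone at 589 of 917 reduced sites, with a median difference of 0.32, and at 1284 of 1639 kept sites, with a median difference of 0.60. RELA was listed at 0 with IL-1β at 65 reduced sites and with cotreatment at 37.

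The share of sites that were reduced declined across classes of RELA intensity with cotreatment. Among distal GR sites with RELA under 4 with IL-1β, it was 63.2% (91 of 144) where RELA with cotreatment was under 1, 53.2% (142 of 267) at 1 to 2, 41.0% (319 of 779) at 2 to 3 and 26.7% (365 of 1366) at 3 to 4. In the joined sites, which lie beyond the limit of the selection, a fall of at least 1 was seen at 8.31% of the 878 sites with RELA of 4 to 5, at 0.524% of the 191 at 5 to 6 and at 0 of the 31 above. The median fall went from 1.32 in the lowest class to -0.15 at 5 to 6, so GR there was slightly higher with cotreatment. Classes of RELA intensity with IL-1β alone differed less, at 41.3%, 38.2%, 34.0% and 33.8% from the lowest class to the highest. The RELA limits and the fall are both parts of the selection, so these shares are a description. GR and RELA with cotreatment come from the same treatment, and whether a shared preparation or opening of chromatin had a part in the trend was not tested.

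**Figure D2:**
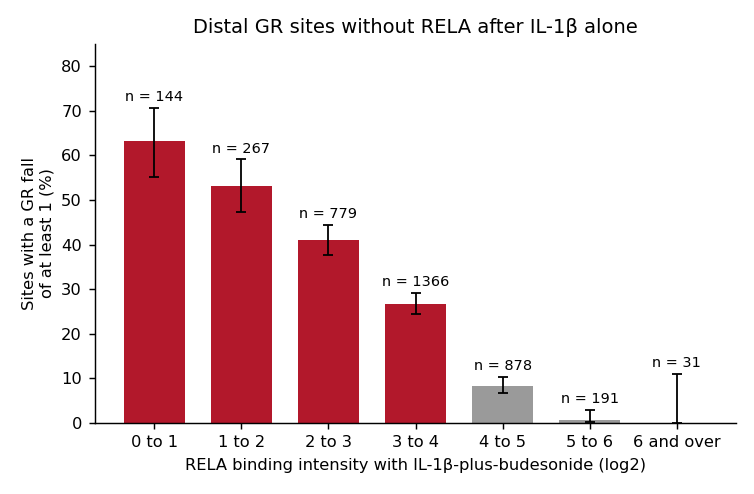
Bars give the percentage of distal GR sites, with RELA under 4 after IL-1β alone, where GR fell by at least 1 with cotreatment, by class of RELA intensity (log2) with cotreatment, with 95% Wilson intervals for counting error over sites. Red classes hold the reduced sites and grey classes the joined sites, and the share went from 63.2% in the lowest class to 8.31% at 4 to 5.

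The deepest falls ended near the floor. In an intron of ATP7A (chrX:77953860-77954259), which encodes a copper transporter, GR was 4.63 with budesonide and listed at 0 with cotreatment. Near COLCA2, at chr11:111324072-111324471, it was 4.32 and then listed at 0. In an intron of ACVR1, a type I receptor for activin and bone morphogenetic proteins, GR went from 4.47 to 0.29 (chr2:157866230-157866629). These sites had weak GR with budesonide, close to the minimum of 4, so their falls span most of the scale.

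Among the 10 deepest falls, the highest intensities with budesonide were 5.49 near ZC3H11B, 5.37 at TFCP2L1 and 5.23 at MAPKAPK2. At MAPKAPK2, a kinase downstream of p38 that stabilises inflammatory mRNAs, GR was 1.23 with cotreatment, and at TFCP2L1, an epithelial transcription factor, it was 1.42. The remaining falls of the 10 were 3.72 at SPIRE1, 3.71 at ADGRG6, 3.52 at CNNM1, 3.48 at ZC3H11B and 3.45 near BICD1. RELA with cotreatment was listed at 0 at 4 of these 10 sites, which were those of COLCA2, MAPKAPK2, SPIRE1 and CNNM1.

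The strongest reduced sites stayed occupied by GR. The site 22.5 kb upstream of FIBCD1 (chr9:130961787-130962186) had the highest GR intensity with budesonide, 7.96, and 6.82 with cotreatment. The site near WDR43 (chr2:28951949-28952348), which holds a GRE match at 10 positions, went from 7.90 to 6.68. The 10 sites highest with budesonide, which include introns of RHOBTB1, FGD4, ELMO1, PDE8A and PLXNA2, fell by 1.13 to 2.07, and GR at all of them was above 5 with cotreatment. At FGD4, which encodes an activator of the GTPase Cdc42, the fall was 2.07, from 7.47 to 5.40. RELA with cotreatment was 3.22 at FIBCD1, 3.86 at WDR43 and 3.39 at FGD4, all higher than with IL-1β alone, at 1.43, 1.30 and 1.45. These were the largest RELA differences among the 10 sites. The smallest were at ELMO1, with 2.62 with IL-1β and 2.67 with cotreatment, and at PLXNA2, with 3.22 and 3.29.

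GRE matches were less frequent in reduced than in kept sites. Within the central 200 bp, a match was present in 201 of 917 reduced sites (21.9%), in 28.9% of kept sites, in 19.9% of joined sites and in 12.4% of all 11571 sites. The difference from the kept sites was -7.00 percentage points, with a 95% Newcombe interval of -10.4 to -3.48. In sequence 2000 bp on either side of the reduced sites the share was 1.04%, so the matches were concentrated at the sites. The difference from the joined sites was 2.01 points, with an interval of -1.54 to 5.60 that includes 0. These intervals cover counting error over sites, which are not replicates of a condition.

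Matches at 11 or 12 positions were also a smaller share of the reduced sites, and matches were less central than in the kept sites. All 12 positions matched in 5 reduced sites (0.545%) and 19 kept sites (1.16%), and 11 in 43 (4.69%) and 108 (6.59%). The share was lower at 10 positions too, at 16.7% of all reduced and 21.2% of all kept sites. These shares therefore do not show that the matches present were weaker. The match lay at a median of 14.5 bp from the centre of the site in the 201 reduced sites and 11.5 bp in the 474 kept ones, and within 25 bp in 66.7% and 80.0%. In the joined sites and in all sites with a match the median was also 14.5 bp, with 69.9% and 70.9% within 25 bp. In this respect it was thus the kept sites that stood apart. Single GR hexamers, AGAACA or TGTTCT alone, did not show the lower share seen for GRE matches. They were present in 44.4% of reduced and 43.6% of kept sites, a difference of 0.76 points with an interval of -3.24 to 4.78. The shares were 38.8% of joined and 28.4% of all sites. A GRE match can contain such a hexamer, so these counts overlap.

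Among sites without RELA, the share with a GRE match declined once the fall passed 0.5. It was 29.6% of the 334 sites where GR did not fall, 32.5% of the 560 that fell by under 0.5, 25.9% of the 745 at 0.5 to 1, 24.4% at 1 to 1.5, 19.7% at 1.5 to 2 and 17.3% of the 139 at 2 and over, where the 95% Wilson interval was 11.9 to 24.4. The difference between reduced and kept sites had the same sign in all 4 classes of GR intensity with budesonide. It was -6.20 points at 4 to 5 and -7.43 at 5 to 6, with intervals that excluded 0, and -9.11 at 6 to 7 and -13.2 at 7 and over, with intervals that included it.

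AP-1 elements, TGANTCA, showed the largest difference of the 11 elements searched. AP-1 is a dimer of FOS and JUN proteins that binds many open enhancers. The element was present in 101 reduced sites (11.0%), 19.6% of kept sites, 21.6% of joined sites and 21.0% of all sites, against 5.62% in sequence flanking the reduced sites. The difference from the kept sites was -8.63 points (95% interval -11.4 to -5.76) and that from the joined sites -10.6 (-13.8 to -7.42). Its share went from 28.7% in sites where GR did not fall to 13.4% at falls of 1 to 1.5 and 7.19% at 2 and over. It was lower in reduced than in kept sites at GR of 4 to 5, by -11.4 points, and at 5 to 6, by -8.04. At 6 to 7 the difference was -3.32 with an interval that included 0, and at 7 and over, where 23 reduced and 25 kept sites remain, it was 1.04.

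κB elements, the sites of NF-κB, were nearly missing from the reduced sites. A full match was found in 2 of 917 (0.218%), in 39 of 1639 kept sites (2.38%), in 5.18% of joined sites and in 18.7% of all sites. The difference from the kept sites was -2.16 points (95% interval -3.03 to -1.31). The share in the reduced sites was also below the 1.64% found in their flanking sequence. The selection kept RELA low in both groups, and within that limit its median was lower in the reduced sites. Among sites with RELA of 2 to 3 with cotreatment the difference was -1.96 points (-3.68 to -0.45), and among those of 3 to 4 it was -2.05 (-3.30 to -0.40). The difference also varied with the GC content of the sites. It was -0.104 under 40% GC, -1.6 at 40 to 45% and -2.23 at 45 to 50%, with intervals that included 0. From 50% GC it was -5.01 (-7.54 to -1.94).

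NFI elements, TTGGCA, were more frequent in the reduced sites, at 176 of 917 (19.2%) against 13.7% of kept, 14.3% of joined and 14.5% of all sites. NFI proteins are dimeric factors known to work with steroid receptors at several promoters. The difference from the kept sites was 5.53 points (95% interval 2.54 to 8.63) and that from the joined sites 4.92 (1.66 to 8.23). By GR intensity with budesonide, it was 1.05 at 4 to 5, with an interval that included 0, 6.35 at 5 to 6, 13.5 at 6 to 7 and 21.7 at 7 and over. In the highest class 21.7% of 23 reduced sites and none of 25 kept sites held the element, but 3 of those reduced sites, near GGT2 and DGCR6, are near-identical in sequence. Without near-identical sites the share there was 10.0% of 20 against 0 of 22, a difference of 10.0 points with an interval of -6.52 to 30.1.

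FOXA and STAT elements also differed, by less. TGTTTAC, bound by FOXA proteins, was present in 11.6% of reduced and 8.30% of kept sites, 3.26 points apart (0.87 to 5.81), against 8.81% of all sites. TTCNNNGAA, bound by STAT factors, was present in 12.2% and 9.27%, 2.94 points apart (0.47 to 5.57), against 9.69% of all sites. KLF and SP elements, GGGNGGG, were lower, at 11.2% and 15.6%, by -4.33 points (-6.96 to -1.56), against 17.2% of all sites. Sequence flanking the reduced and kept sites differed in the same direction for KLF, at 9.65% and 12.5%, and for STAT, at 7.14% and 5.58%. For FOXA the flanking shares were 2.94% and 2.84%. The GC content of the reduced sites had a median of 42.75%, below the 44.25% of the kept and 46% of the joined sites. Within the sites of under 40% GC the differences in the KLF and STAT elements had the opposite sign, at 0.313 and -1.35 points, and at 45 to 50% GC that of the FOXA element was -1.66.

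The other 3 elements had intervals that included 0. C/EBP elements, TTGCNNAA, were present in 17.8% of reduced and 17.4% of kept sites and 20.2% of all sites, with a difference of 0.39 points (-2.63 to 3.53). TEAD elements, GGAATG, were present in 19.1% and 16.8%, with a difference of 2.24 (-0.82 to 5.43), against 17.9% of all sites. GATA elements, AGATAA, were present in 15.0% and 13.2%, with a difference of 1.81 (-0.96 to 4.72), against 12.5% of all sites. All elements were sought on both strands, and a match describes letters only, not binding by the named factor.

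Reduced sites lay more often in introns. In the GENCODE annotation of protein-coding genes, 520 of 917 (56.7%) were intronic against 49.4% of kept and 51.9% of joined sites, and the difference from the kept sites was 7.29 points (95% interval 3.25 to 11.3). Exons held 3.05% and 4.88%, and 40.2% and 45.7% lay between genes. The median distance to the start of the nearest gene was 51.6 kb in the reduced sites, with quartiles of 24.4 and 102 kb, against 47.0 kb in the kept and 49.6 kb in the joined sites. The site lay upstream of that start in 31.3% of reduced and 32.8% of kept sites. Distance was limited by the selection in all 3 groups alike.

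No difference in neighbouring RELA binding was detectable between reduced and kept sites. A site with RELA of at least 4, with IL-1β or with cotreatment, lay within 50 kb of 418 reduced sites (45.6%), 46.6% of kept and 61.3% of joined sites. The difference from the kept sites was -0.97 points with an interval of -4.98 to 3.06, and that from the joined sites was -15.7 (-20.0 to -11.3). A site that reached GR of 4 only with cotreatment lay within 50 kb of 10.6% of reduced, 14.2% of kept and 23.6% of joined sites.

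Reduced sites were found near one another. Another reduced site lay within 50 kb of 26.8% of them, and a reduced site lay within 50 kb of 13.7% of kept and 15.6% of joined sites. A kept site lay within 50 kb of 23.4% of reduced and had another kept site that close in 22.8% of cases. Joined at gaps of up to 50 kb, the 917 sites formed 782 loci, of which 671 held 1 reduced site and 111 held 246 between them, with at most 5 in a locus. The table named 726 nearest genes, 147 of them for 2 or more reduced sites and 9 for 4 or more. A nearest gene is a label of position, and whether a site acts on that gene was not tested.

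Genes nearest to 4 or more reduced sites were chosen for that number, so their counts are high by choice. Over all distal GR sites without RELA the reduced share was 35.9%. MTUS1, which encodes a protein associated with microtubules, had all 5 of its sites reduced, with falls of 1.13 to 2.01. The deepest of these, 13.5 kb from the start in an intron, went from 4.65 to 2.64, and GR with budesonide at the others was 5.31 to 6.27. MAPKAPK2 had 4 of 5 sites reduced. They lay in its introns at 14.7, 19.8, 24.0 and 24.7 kb from the start, and GR went from 5.23 to 3.32, from 5.23 to 1.23, from 6.51 to 4.81 and from 4.85 to 1.67. RELA with cotreatment was 1.05, 0, 2.35 and 0 at these sites. The fifth site, at 63.7 kb, was kept, at 5.83 and 4.93. All 5 sites were thus lower, with the deepest falls where RELA was listed at 0.

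CSNK1A1, a casein kinase of the WNT pathway, also had 4 of 5 sites reduced, all 61.4 to 79.6 kb downstream of its start. GR with budesonide was 4.63 to 6.18 there and the falls were 1.14 to 1.90, and the kept site among them fell by 0.81. DKK1, a secreted WNT inhibitor, had 4 reduced sites beside others outside the group. The furthest reduced site, at 158 kb, went from 6.01 to 3.48. FGD4 had reduced sites at 48.3, 50.8, 57.8 and 134 kb, while GR at its start hardly moved, from 6.28 to 6.16. The 2 joined sites of FGD4, at 36.4 and 54.4 kb, went from 6.79 to 6.33 and from 6.67 to 5.81.

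ALDH1A1, an enzyme of retinoic acid synthesis, had sites that moved in both directions. Its 4 reduced sites fell by 1.07 to 1.92, among them 1 at 102 kb that went from 5.08 to 3.25. A site at 173 kb with RELA of 6.82 with IL-1β went from 3.40 to 6.84. The 4 reduced sites nearest to GGT2 lie in repeated sequence, sharing 84.3% to 100% of their 31-base words with another site of the table, so their intensities are not independent. Over 50% of the words were shared at 22 of the 917 reduced and 46 of the 1639 kept sites.

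Among glucocorticoid-induced genes, 40 of 43 had a site in the table, and 14 of their 41 distal GR sites without RELA were reduced (34.1%), near the 35.9% of all such sites. The median fall over the 41 was 0.70, against 0.76 over all. The 14 lay nearest to 9 genes, which were ACSL1, BCL6, CIDEC, ERRFI1, FKBP5, SGK1, STOM, TAT and TFCP2L1.

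FKBP5, a cochaperone that limits hormone binding by GR, combined reduced and unaltered sites. Its 3 reduced sites, all intronic, went from 4.76 to 3.32 at 12.8 kb, from 5.97 to 4.92 at 88.1 kb and from 6.11 to 4.78 at 138 kb. The strongest site, at 5.70 kb, had GR of 8.96 with budesonide and 8.96 with cotreatment, and RELA there went from 2.51 with IL-1β to 5.78 with cotreatment. The site 3.25 kb upstream went from 7.78 to 8.17 as RELA went from 3.71 to 5.51. RELA with cotreatment was 0.63, 3.57 and 3.78 at the reduced sites, where the selection required it to be under 4, as it required at least 4 at joined sites. The kept site at 126 kb, at 8.26 and 7.30, fell by 0.96 and so lay just outside the group.

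TAT, tyrosine aminotransferase, is a classical GR target of liver. Its reduced sites lay 13.5, 16.8 and 18.4 kb upstream, and GR went from 4.83 to 2.82, from 4.93 to 2.96 and from 4.80 to 3.10. The kept sites on either side, at 8.11 and 20.2 kb, went from 6.53 to 5.83 and from 5.39 to 4.55. At TFCP2L1 the reduced site at 24.2 kb lay between joined sites at 2.23 kb, which went from 7.57 to 7.28, and at 87.4 kb, which had 7.70 with budesonide and 7.70 with cotreatment. A site 155 kb upstream of SGK1, a kinase of sodium transport, went from 5.94 to 4.38, and an intronic site of BCL6, a transcriptional repressor, 6.00 kb from the start, went from 5.59 to 4.49.

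Receptors and ligands of the TGF-β and activin family accounted for 10 reduced sites among 22 (45.5%, 95% Wilson interval 26.9 to 65.3), with a median fall of 0.93 against 0.76, and the interval includes the 35.9% of all such sites. The receptors were ACVR1, described above, TGFBR2, BMPR1B and the coreceptor TGFBR3. The TGFBR3 site went from 4.30 to 1.61, and the TGFBR2 site at 82.7 kb in its intron from 5.08 to 3.18. BMP4, a ligand, had reduced sites 168 kb upstream and 151 kb downstream, which went from 5.50 to 3.57 and from 5.92 to 4.07. INHBB, an activin subunit, and the inhibitors SMAD7 and BAMBI had smaller falls, of 1.17, 1.14 and 1.09. When sites were assigned to any gene whose body lay within 50 kb, the list had 6 reduced sites of 17 (35.3%).

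GR itself and its coregulators held 6 reduced sites of 14 (42.9%, interval 21.4 to 67.4), where the interval includes the 35.9% of all such sites. Besides those of FKBP5 they included a site near CITED2, which binds the coactivators CBP and p300, where GR went from 5.14 to 3.53, and one at NCOA2, a coactivator of GR, where it went from 4.73 to 3.13. Genes of ion and solute transport held 8 of 18 (44.4%, interval 24.6 to 66.3, which also includes 35.9%). Among them was a site at 60.6 kb in SLC7A11, the cystine transporter, where GR went from 5.00 to 2.87. SLC38A2, an amino acid transporter, had 3, at 16.3, 30.8 and 146 kb upstream, with falls of 1.15, 2.17 and 1.55. Each of these holds a GRE match at 10 positions.

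Metabolic genes held 7 reduced sites of 25 (28.0%, interval 14.3 to 47.6), and for this and the other lists of this paragraph the interval includes the 35.9% of all such sites. The site at PPARA, a receptor that controls fatty acid oxidation, went from 4.59 to 2.23, and those beyond PFKFB3, a regulator of glycolysis, from 5.76 to 4.01 and from 5.73 to 4.27. EGFR and MAP kinase genes held 4 of 18 (22.2%, interval 9.00 to 45.2), near EGFR, its inhibitor ERRFI1, the phosphatase DUSP10 and SPRED1, but 1 of 8 when sites were assigned by gene body within 50 kb. GR near DUSP10 went from 4.97 to 2.77, and the falls near EGFR, ERRFI1 and SPRED1 were 1.72, 1.69 and 1.16. Genes of the extracellular matrix and adhesion held 4 of 13 (30.8%), and the intronic site of the integrin ITGB1 at 52.2 kb was the strongest, going from 7.25 to 5.46. Lung epithelial genes held 2 of 6 (33.3%), both near the keratin KRT8, where GR went from 6.64 to 4.25 and from 5.24 to 3.89. Lineage transcription factors held 2 of 11 (18.2%, interval 5.14 to 47.7), at HNF4G and TEAD1.

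Inflammatory genes held few sites that could qualify. NF-κB targets and cytokines, all 28 of which had a site in the table, had 8 distal GR sites without RELA, of which 1 was reduced (12.5%, interval 2.24 to 47.1, against 35.9% of all such sites). Chemokines had 1 such site, 15.6 kb upstream of CCL28, which was reduced, from 5.04 to 3.32. AP-1, KLF and C/EBP factors had 12 such sites and circadian clock genes 7, with none reduced, against 35.9% of all such sites, and their median falls were 0.26 and 0.15. By gene body within 50 kb the clock genes had 1 reduced site of 9 and the AP-1, KLF and C/EBP factors 0 of 9. Genes of other tissues had none. The counts of these lists are small, and the 95% Wilson intervals reach 24.2% for 0 of 12 and 35.4% for 0 of 7.

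The reduced site of the NF-κB targets lay 25.1 kb from the start of NFKBIA, which encodes the inhibitor that holds NF-κB in the cytoplasm. GR there went from 5.02 to 2.86, with RELA at 0.99 with IL-1β and 2.42 with cotreatment. The next site in the table on its far side, at 28.8 kb, had GR listed at 0 with budesonide and at 3.05 with cotreatment, and RELA of 7.02 with IL-1β. The site at 30.0 kb went from 6.70 to 7.12, and that at 48.2 kb from 5.33 to 6.49, with RELA above 6 at both. GR at the start of the gene went from 9.47 to 8.44. The reduced site was thus the only site of the 9 assigned to NFKBIA with RELA under 4 with cotreatment.

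**Figure D3:**
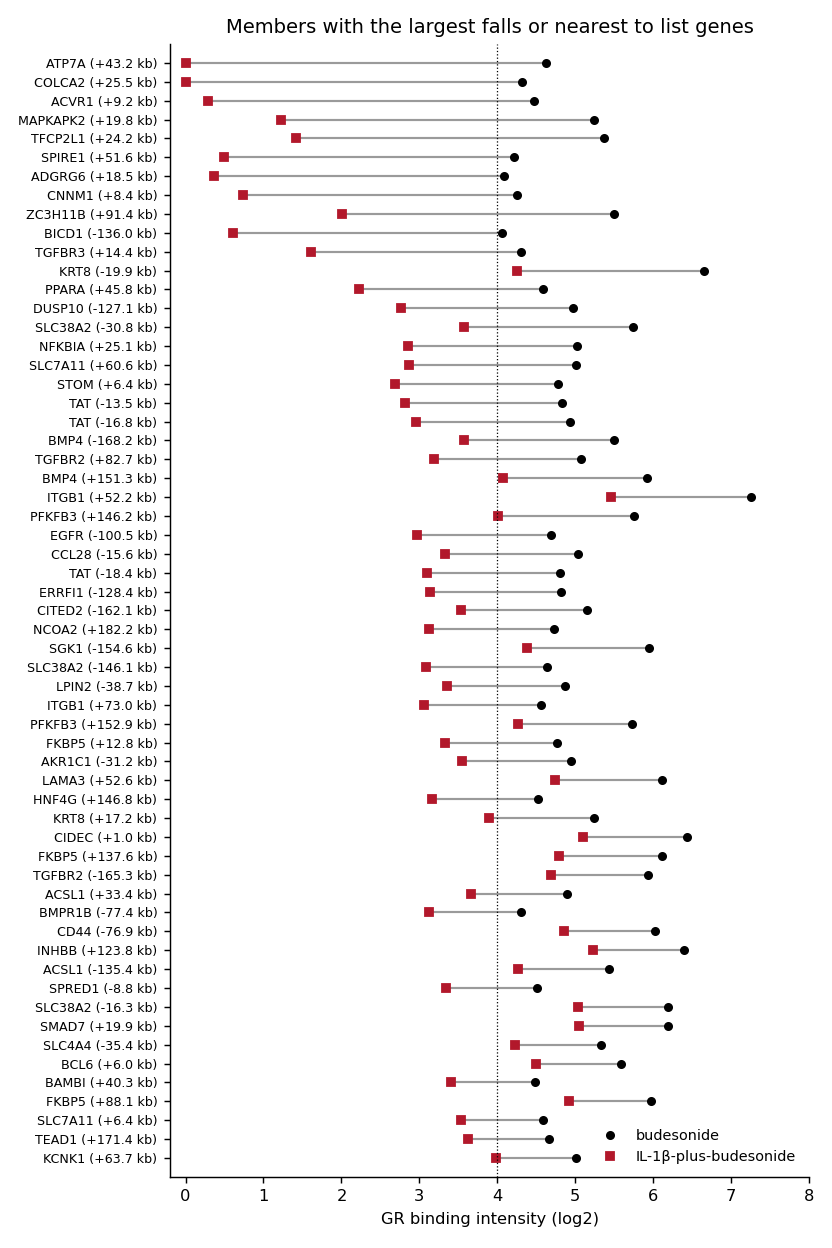
GR binding intensity (log2) with budesonide (black circles) and with IL-1β-plus-budesonide (red squares) at the reduced sites with the 10 largest falls and at reduced sites nearest to genes of the lists, ordered by the fall, with the distance from the start of the nearest gene and a dotted line at 4. Some sites of the lists are not shown. The values run from a fall of 4.63 at ATP7A to one of 1.02 near KCNK1.

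**Figure D4:**
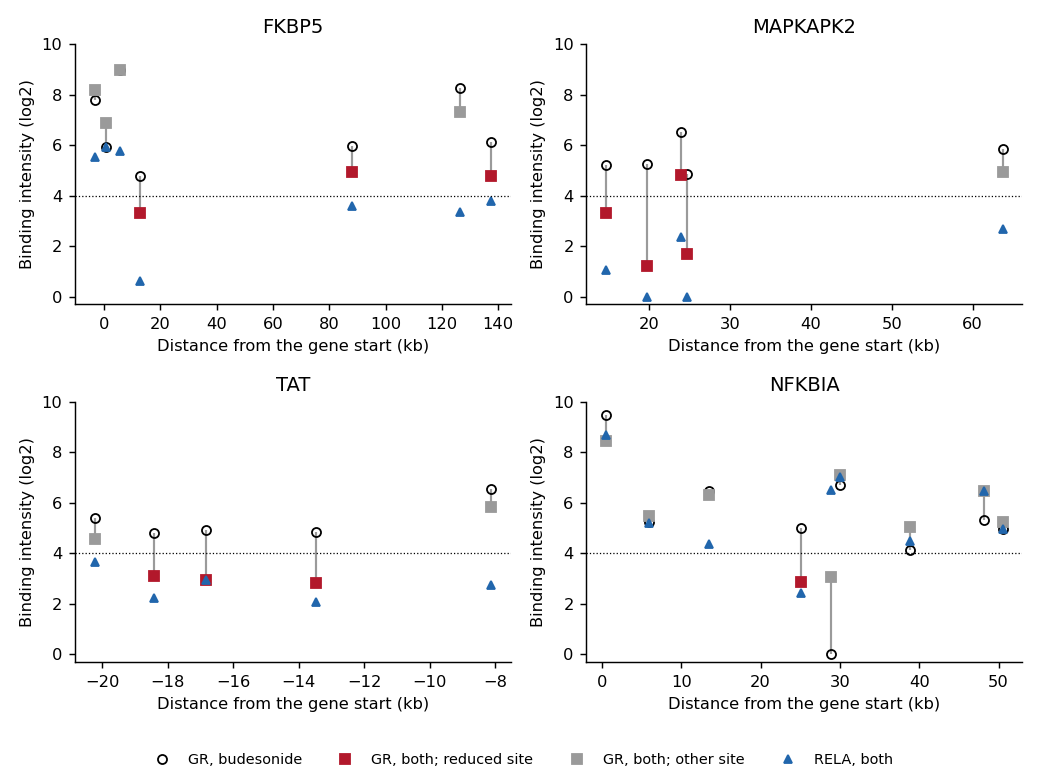
Binding intensity (log2) at every site of the table nearest to FKBP5, MAPKAPK2, TAT and NFKBIA by distance from the gene start in kb, with open circles for GR with budesonide, squares for GR with both agents (red at reduced sites) and triangles for RELA with both. Grey lines join the GR values of a site, and the reduced sites lie among sites of the same gene that moved less or, at NFKBIA and FKBP5, that rose.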

How the data were processed

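ChIP of GR and RELA from A549 cells was sequenced as 2 libraries in each of 9 conditions, input included. Tools named in the submitters' processing notes are bcl2fastq, FastQC 0.10.1, Bowtie2 2.4.4, SAMtools, MACS2 2.2.7.1 and DiffBind 3.2, with GRCh38. The binding intensity deposited by the authors was taken as a log2 value with a floor of 0, because DiffBind writes such values. For the log base and the library scaling, nothing is given in the sources used here. The table held 1 value per site, factor and treatment, so no test on libraries, error or depth could be had. Deposited columns of the authors' own comparisons (fold over NS, FDR, significance, behavior and trend) were not used.

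Values were joined by site name. The number of unmapped columns of sample values was 0. Sequences were read from GRCh38 by the coordinates of the table. Of 11284 sites whose nearest gene is in GENCODE 44, the distance in the table was within 400 bp of a start of that gene at 96.2%. Annotation used protein-coding genes of GENCODE 44. A GRE match needed 10 of 12 positions, a κB element all 9 defined positions of a 10 bp consensus, and other elements every stated base, in the central 200 bp. The search was tested on simulated data. Shares carry 95% Wilson intervals and differences 95% Newcombe intervals (statsmodels 0.14.6), which cover counting error over sites only. Near-identical sites share over 50% of their 31-base words with another site. Alternatives changed 1 choice at a time. Python 3.11.15, pandas 2.3.3, NumPy 2.4.6 and Matplotlib 3.10.9 were used.

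The sites, lists and comparisons were chosen with earlier results of these data known. Named sites are the 10 largest falls, the 10 highest GR intensities with budesonide, the 3 nearest on each side of the limit, reduced sites nearest to genes of the lists, those of genes nearest to 4 or more reduced sites, and the best GRE matches. A planned cap of 4 sites for each list, by the largest fall, was exceeded for some lists, such as that of TGF-β and activin. Sequences were taken from the first, second and last of these. Neighbouring sites of named genes were described after their values were seen. Some sites and sequences are not reported here.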

Additional observations from a re-analysis of the deposited data

How the results depend on the processing

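The number of reduced sites depended on each limit. It was 1662 with a fall of at least 0.5, 408 with 1.5 and 139 with 2. It was 531 with the fall counted from the median of all GR sites, 569 with GR of at least 5, 490 with RELA under 3, 181 with RELA under 2 and 446 within 50 kb of a start. In these last groups the reduced sites were 37.3%, 46.4%, 60.1% and 34.4% of the sites that could qualify. The difference in GRE matches was negative in all 20 alternatives, from -24.4 to -2.51 points. Those outside its interval were -2.51 with 11 positions, -13.2 at GR of 7 and over, -24.4 with RELA under 1 with cotreatment, -3.12 under 40% GC and -10.4 from 50% GC. The difference in NFI elements was positive in all 18, from 1.05 to 21.7. That in κB elements was negative in 15 of 18 and ran from -5.01 to 0. The sign changed in 2 of 18 for AP-1, at GR of 7 and over with all sites (1.04) and without near-identical ones (10.5). It changed for FOXA at GR of 7 and over (-7.65 and, without near-identical sites, -8.64), at 45 to 50% GC (-1.66) and with RELA of 1 to 2 (-2.37), for KLF at GR of 7 and over (0.348 and, likewise, 0.455) and under 40% GC (0.313), and for STAT under 40% GC (-1.35). The cause was not tested. The classes of GC and RELA, and the settings without near-identical sites or without genes nearest to 4 or more sites, were chosen after seeing the data. The difference in RELA sites nearby was -1.85 points within 10 kb and 1.16 within 100 kb, and the count for glucocorticoid-induced genes was 14 by either assignment. No paired analysis was possible because the table holds 1 value per condition and none per library. For the same reason no library could be left out. The class at GR of 7 and over holds 23 reduced and 25 kept sites.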
